A study of Mus musculus with 16 samples.

Results

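The comparison of ethanol-fed with pair-fed mouse liver, both given vehicle only, rests on 8 of the 16 libraries of the study, 4 per diet, chosen by their labels and not by any measured value. The PF group ate a pair-fed control diet, the EtOH group an ethanol diet of the NIAAA chronic and binge drinking model, and both received vehicle. In that model a liquid ethanol diet is followed by a single large dose of ethanol, and pair-fed animals eat a matched amount of control diet. The other 8 libraries come from mice given matrix-bound nanovesicles (MBV) on either diet, and they enter here through the filter on low counts, the scaling and the shared estimate of each gene's spread. The labels give liver as the tissue and do not state strain, sex, age or the time of collection, nor whether the 4 repeats of a diet come from 4 mice. The p-values therefore cover the spread between these libraries. Relative to read sampling alone, squared count differences between libraries were 12.1 to 47.6 within PF and 21.4 to 131 within EtOH. Read sampling alone would give about 1. Whether the rest of the spread lies between mice or in sample preparation was not tested. Across all 12901 genes tested of 24411 in the files, 5137 passed an adjusted p of 0.05 in edgeR's quasi-likelihood test (39.8%), with 2627 higher (20.4% of genes tested) and 2510 lower (19.5%) in EtOH, and the median log2 fold change of all tested genes was 0.01. In 4162 genes (32.3%) the 4 EtOH and the 4 PF libraries did not overlap. The genes are described here through 72 lists of pathways and families, which held 2057 genes of the files, 1859 of them past the filter on low counts and tested. In 21 of the 72 lists the share of members called was at or below 39.8%, and a count near the shares of all tested genes is no result about a list. In 33 lists at least 1 tested member had a PF mean below 1 CPM, and such a gene may have passed the filter on low counts only through the groups in which it is higher.

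Ethanol is oxidised in hepatocytes to acetaldehyde and acetate, which shifts the cell's balance of reduced and oxidised NAD. The hepatocyte is also the body's main maker of plasma proteins, the main site of amino acid breakdown and retinoid storage, and a cell packed with mitochondria and peroxisomes. Translation runs in 2 compartments with separate parts: cytosolic ribosomes and aminoacyl-tRNA synthetases read nuclear messages, and their mitochondrial counterparts read the few messages of the mitochondrial genome. Tubulin and actin form the tracks and the cortex along which plasma proteins leave the cell.

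Depth ranged from 15.3 to 20.5 M counts in genes per library. The first principal component of log2 CPM of these 8 libraries held 57.8% of the variance and set the diets apart, with PF at -49.16 to -41.02 and EtOH at 37.33 to 69.46. EtOH 1 stood apart on the second component (18% of the variance), at 53.75 against -35.7 to -6.757 in the other EtOH libraries. The log2 CPM of EtOH 1 correlated with the other EtOH libraries across genes at r of 0.9441 to 0.9575, and the others among themselves at 0.9789 to 0.9831. The share of reads not mapped was 12.68% ± 0.897 (SD, n = 4) in EtOH and 18.32% ± 1.88 in PF. Reads that mapped to several places, which are not counted for any gene, were 6.753% ± 0.921 of reads in EtOH and 5.078% ± 0.345 in PF, and neither share overlapped between diets (exact permutation test for each, 2-sided p = 0.0286, the smallest that 4 against 4 can give, adjusted p = 0.0667 over 7 library measures). Hepatocyte markers summed to 112400 to 149500 CPM in PF and 108600 to 183700 CPM in EtOH, and 4 of the 15 rose and none fell. That count of 4 was 2 (Ahsg and Tat) in a fit of the 8 libraries alone and without PF 1, PF 2, PF 3, EtOH 3 or EtOH 4, and without EtOH 3 2 fell. Because these are whole-tissue samples, fewer cells of a type and less RNA per cell cannot be told apart.

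**Figure D1:**
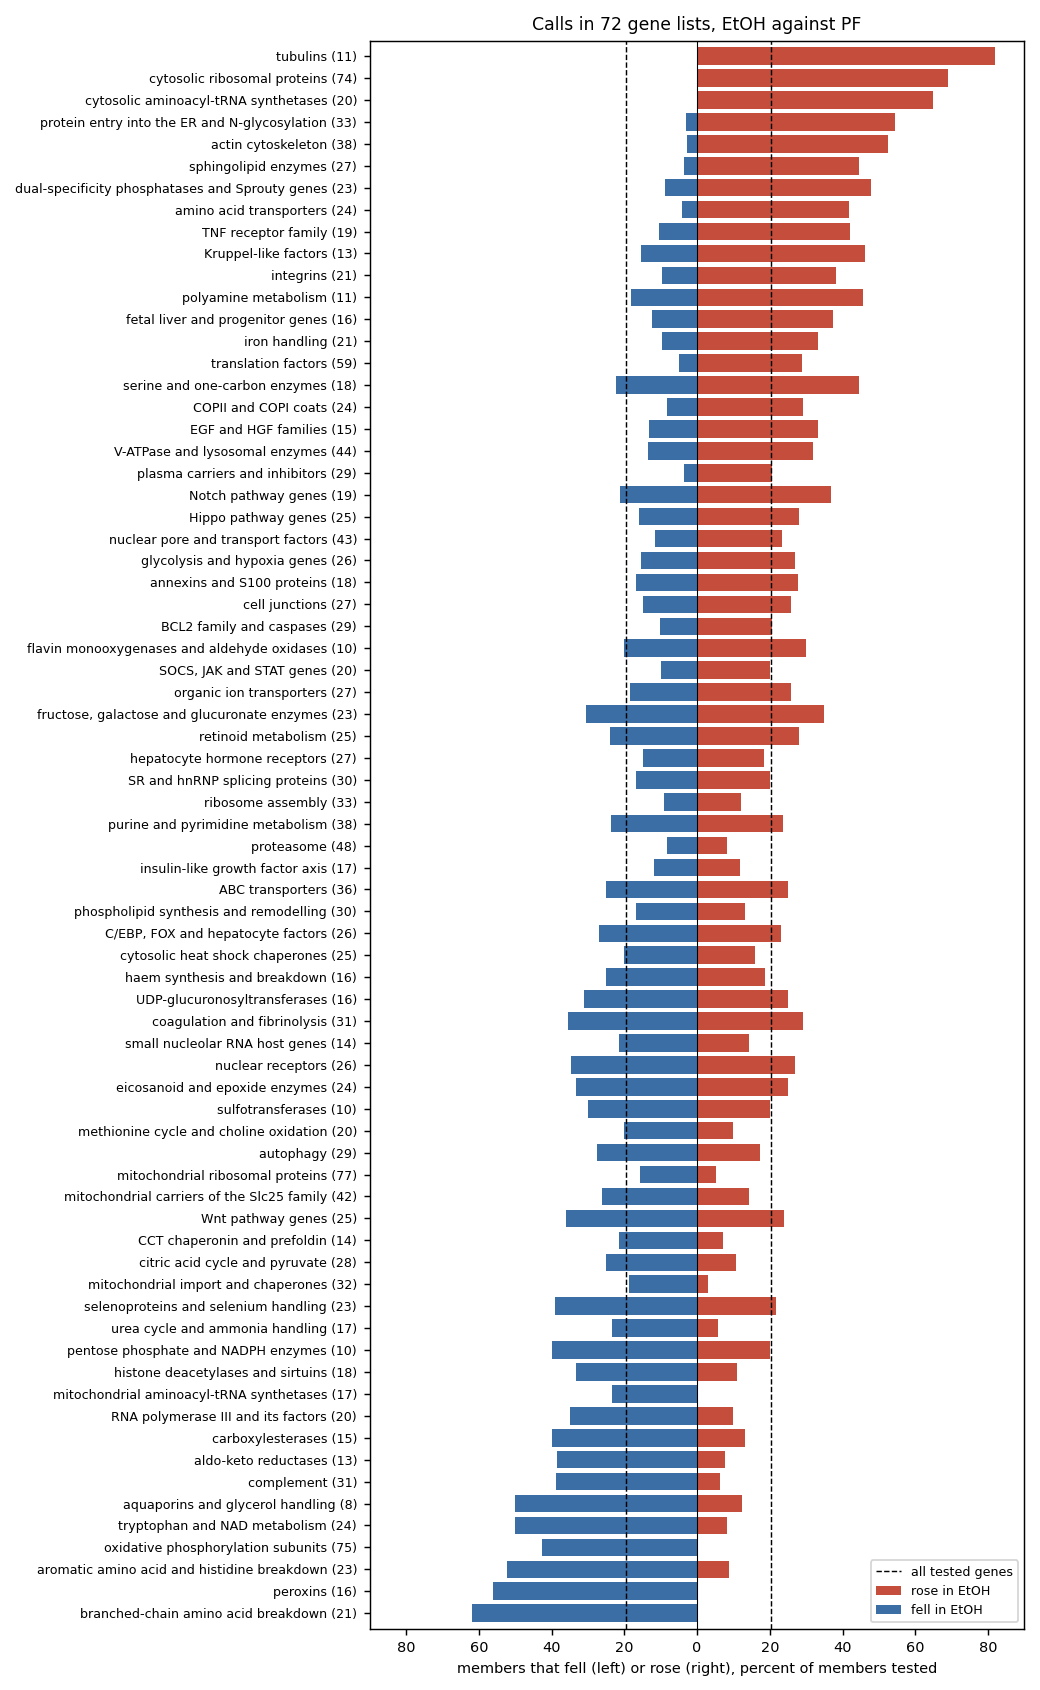
Share of tested members of each of 72 gene lists that rose (right, percent) or fell (left, percent) in EtOH against PF at an edgeR adjusted p under 0.05. Dashed lines mark the shares over all 12901 tested genes, 20.4% higher and 19.5% lower, and the number after each name is the count of members tested.

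Stress signalling genes, a matrix protease and an enzyme of drug metabolism stood among the largest rises, and major urinary protein genes among the largest falls. The growth arrest gene Gadd45a, whose small protein feeds stress kinases and DNA repair, was at 1.28, 2.13, 1.2 and 1.24 CPM (read counts scaled to library size) in PF 1 to 4 and at 42.7, 26, 58.5 and 47.1 CPM in EtOH 1 to 4, the order used throughout. Every EtOH library lay at least 12.2-fold above every PF library (log2 fold change, written log2 from here on, 4.90 ± 0.53 SE, edgeR quasi-likelihood test with Benjamini-Hochberg adjusted p = 6.55e-06). Gadd45b, of the same family, rose from 1.72 ± 1.05 to 46.7 ± 22.6 CPM (mean ± SD, n = 4). Cyp2a22, a cytochrome P450 whose reads are shared with near-identical family members, rose from 3.94 ± 0.952 to 144 ± 63.6 CPM (log2 5.20). Cux2, a homeobox repressor that is female-biased in mouse liver, rose from 0.753 to 16.6 CPM (log2 4.47, or 5.41 without PF 4). Adamts4, a protease of matrix proteoglycans, rose from 0.348 to 8.4 CPM. The growth factor Nrg1, the vitamin D receptor Vdr and the phosphate transporter Slc34a2 were nearly unread in PF and stayed low in EtOH, at 3.24, 1.6 and 7.64 CPM. For Nrg1 the log2 value of 5.11 became 3.60 without EtOH 1, and for Vdr 4.99 became 5.96 without PF 2.

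Among the largest falls, Keg1, an acyltransferase-like gene of kidney and liver, went from 167, 197, 136 and 122 CPM in PF to 6.1, 16.3, 12.9 and 11.2 CPM in EtOH. The diets did not overlap (log2 -3.75 ± 0.47, adjusted p = 2.03e-05). The transporter Slc22a28 fell from 13.3 ± 5.67 to 0.219 ± 0.146 CPM, and Selenbp2, a selenium-binding protein, from 675 ± 395 to 33.4 ± 20.2 CPM. Omd, a small matrix proteoglycan, and Adgrv1, a very large adhesion receptor, fell from 6.94 to 0.454 CPM and from 8.62 to 0.628 CPM. Major urinary protein genes made up 6 of the 20 largest falls, among them Mup7, from 1186 ± 790.0 to 58.1 ± 55.4 CPM. For Mup7 the log2 value of -4.35 became -5.14 without EtOH 2, and these genes are near-identical copies that share reads.

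Most genes for cytosolic aminoacyl-tRNA synthetases rose, and most of those for mitochondrial ones were not called. Of 20 cytosolic aminoacyl-tRNA synthetases, which load amino acids onto tRNA, 13 rose and none fell (median log2 0.39), a share of 65% higher against 20.4% of all tested genes. Of 17 mitochondrial ones none rose and 4 fell (median -0.26), a share of 23.5% lower that is near the 19.5% of all tested genes. Gars, which loads glycine in both compartments, was at 39, 52.9, 37 and 43.9 CPM in PF and 101, 65.7, 68.5 and 79.5 CPM in EtOH. The lowest EtOH library lay above the highest PF library (log2 0.86 ± 0.17, edgeR adjusted p = 0.00103). Sars, Lars and Cars, for serine, leucine and cysteine, rose by log2 0.86, 0.87 and 0.94. Lars2, the mitochondrial leucine enzyme, was at 149.5, 615, 565 and 141 CPM in PF and 98.1, 96.8, 128 and 131 CPM in EtOH. Its PF libraries split into a high and a low pair, and the low pair lay close to EtOH (log2 -1.70 ± 0.40, adjusted p = 0.0036). Hars2, for histidine, was steadier, at 31.7, 30.3, 29.5 and 32.7 CPM against 19.9, 20, 19.9 and 18.4 CPM (log2 -0.66). Without EtOH 1 or PF 2 a single mitochondrial synthetase rose, and 7 fell with upper quartile scaling. With any single library left out the cytosolic count stayed between 10 and 15 with none lower.

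Cytosolic synthetase genes are known targets of ATF4, which binds a C/EBP-ATF response element. That element was searched as TGATGNAA on both strands from 250 bases before to 50 bases after each listed start site in RefSeq's GRCm38.p6 promoter table, which held 9861 of the 12901 tested genes. It was present in 5 of the 12 cytosolic synthetase genes in the table (41.7%) and in 283 of the 9861 (2.87%), 3.49% of genes that rose and 2.7% of those that fell. The 5 were Gars and Iars, which rose, and Aars, Tars and Yars, which were not called (log2 0.26, 0.03 and 0.45). The element therefore stood in 2 of the 6 that rose and in 3 of the 6 that were not called. The 3 with the element before the start site are shown over 120 bases to compare a gene that rose with 2 that were not called, read 5′ to 3′ on the gene's strand with the element, or its reverse complement, in capitals. It begins 30, 112 and 15 bases before the start in turn. They lie at chr6:55037881-55038000 (plus strand), chr8:111033722-111033841 (plus) and chr15:11399659-11399778 (minus). The table's start of Aars lies 6064 bases inside the full span of the gene in RefSeq's annotation.
Gars: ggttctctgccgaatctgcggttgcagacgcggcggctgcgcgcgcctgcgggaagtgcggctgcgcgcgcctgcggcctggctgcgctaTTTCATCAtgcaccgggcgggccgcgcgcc
Aars: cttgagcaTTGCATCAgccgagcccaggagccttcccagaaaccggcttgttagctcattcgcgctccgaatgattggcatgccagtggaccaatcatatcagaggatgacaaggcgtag
Tars: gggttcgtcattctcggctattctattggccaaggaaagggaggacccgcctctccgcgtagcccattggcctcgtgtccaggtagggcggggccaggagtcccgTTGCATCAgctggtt

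Most cytosolic ribosomal protein genes rose, in small steps, and most mitochondrial ones were not called. Of 74 cytosolic ribosomal proteins 51 rose and none fell (median log2 0.27), whereas of 77 mitochondrial ones 4 rose and 12 fell (median -0.11). The cytosolic share of 68.9% higher compares with 20.4% of all tested genes, and the mitochondrial shares, 5.19% higher and 15.6% lower, are both below those of all tested genes. Rpl12, of the large subunit, was at 98.8, 108, 111 and 102 CPM in PF and 166, 161, 149 and 153 CPM in EtOH. The groups were well apart for a small change (log2 0.58 ± 0.08, adjusted p = 4.54e-05). Rpsa and Rpl13 rose by log2 0.58 and 0.53. Of the mitochondrial subunits, Mrpl49 fell from 26 ± 2.39 to 13.5 ± 2.15 CPM (log2 -0.94) and Mrpl36 fell (log2 -0.70). Eif6, which keeps the large subunit from joining too early, rose from 48.4 ± 6.54 to 117 ± 16.1 CPM (log2 1.28), and Eif1a, of start codon scanning, rose by log2 1.73. The helicase gene Eif4a2 fell from 388 ± 38.7 to 166 ± 33 CPM (log2 -1.22), and in all 17 of 59 translation factors rose and 3 fell (5 fell without PF 2, and 11 rose in a fit of the 8 libraries alone). In a fit of the 8 libraries alone 21 cytosolic ribosomal proteins rose and none fell. The mitochondrial count of 4 higher was 2 without PF 1, PF 2 or PF 3, and 19 fell with upper quartile scaling. Ribosomal protein genes have many processed copies, and the part that the higher share of reads mapping to several places in EtOH has in their rise was not tested.

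**Figure D2:**
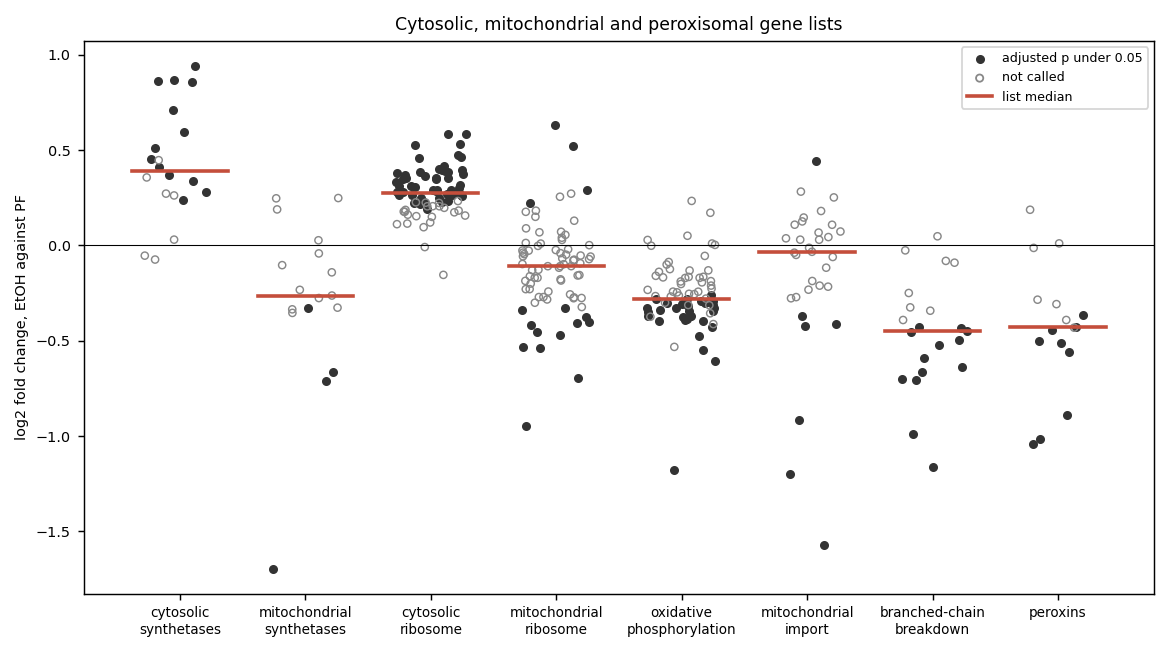
Log2 fold change, EtOH against PF, of every tested member of 8 gene lists, each point 1 gene, filled where the edgeR adjusted p was under 0.05 and open where not, with the list median as a bar. Cytosolic synthetases and ribosomal proteins lie mostly above 0 (medians 0.39 and 0.27) and the medians of the 6 mitochondrial and peroxisomal lists lie below it.

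Many genes for amino acid uptake and some for serine synthesis rose, and many for amino acid breakdown fell. Of 24 amino acid transporters 10 rose and 1 fell (median log2 0.46), 41.7% higher against 20.4% of all tested genes. Of the 24, 2 had a PF mean below 1 CPM, and these 2 are among the 10 that rose. Slc7a1, a carrier of arginine and lysine kept low in normal liver, was at 0.794, 1.57, 0.698 and 0.808 CPM in PF and 34.5, 10.1, 5.97 and 10.2 CPM in EtOH. All EtOH libraries were higher than all PF libraries, with EtOH 1 far above the rest (log2 3.99 ± 0.62, adjusted p = 0.000135, or 3.19 without EtOH 1). Slc3a2, the heavy chain shared by several carriers, rose from 32.1 ± 7.41 to 74.6 ± 9.34 CPM, its partner Slc7a5 from 2.47 to 7.64 CPM, and the glutamine carriers Slc1a5 and Slc38a2 by log2 1.42 and 1.46. The 1 transporter that fell, Slc38a3 (log2 -0.46), lost its call without PF 1, PF 2, PF 3, EtOH 1 or EtOH 4 (log2 -0.42, -0.42, -0.49, -0.28 and -0.43).

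Serine is made from a glycolytic intermediate by Phgdh, Psat1 and Psph and feeds the folate cycle. Psat1 was at 0.244, 0.251, 0.648 and 0.621 CPM in PF and 40.6, 11.3, 14.2 and 25.1 CPM in EtOH. No PF library reached 1 CPM, and EtOH 1 was again the highest (log2 5.65 ± 0.73, adjusted p = 2.72e-05). Psph rose from 3.71 ± 1.31 to 15.3 ± 4.68 CPM and Phgdh from 0.165 to 1.54 CPM (log2 3.21, or 3.94 without PF 2). The mitochondrial folate enzymes Mthfd2 and Mthfd1l rose by log2 3.22 and 2.42, but the enzymes that interconvert serine and glycine, Shmt1 and Shmt2, fell from 186 ± 15.8 to 98.5 ± 20.5 CPM and from 225 ± 2.23 to 150.3 ± 35.3 CPM. In that list 8 of 18 rose and 4 fell, 44.4% and 22.2% against 20.4% and 19.5% of all tested genes. Of the 18, 4 had a PF mean below 1 CPM, and these 4 are among the 8 that rose. The filter on low counts may have passed them only through the groups in which they are higher. The count of rises therefore gives no direction for the list.

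Of 21 genes that break down leucine, isoleucine and valine, 13 fell and none rose (median log2 -0.45). Ppm1k, the phosphatase that switches on the branched-chain keto acid dehydrogenase, was at 107, 118, 126 and 111 CPM in PF and 33.3, 42.8, 67.9 and 62.4 CPM in EtOH. All EtOH libraries lay below all PF libraries, and EtOH 1 lowest (log2 -1.16 ± 0.18, adjusted p = 0.000124). Hsd17b10, Hibch and Mut, of later steps inside mitochondria, fell (log2 -0.99, -0.66 and -0.71) and so did Bckdha, a subunit of the dehydrogenase (log2 -0.50). The list's median in each EtOH library, relative to the PF mean, was -0.87, -0.40, -0.16 and -0.49, against -0.03 to 0.05 in PF.

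Of 23 genes for breakdown of phenylalanine, tyrosine, histidine, proline and related amino acids, 12 fell and 2 rose (median log2 -0.37), or 7 fell in a fit of the 8 libraries alone. Hpd, which acts after tyrosine is deaminated, fell from 2646 ± 451 to 1340.1 ± 447 CPM (log2 -0.98), and Prodh2, for hydroxyproline, from 206 ± 8.81 to 95.6 ± 20.9 CPM. Tat, the first enzyme of tyrosine breakdown and a classic glucocorticoid target, went the other way, from 2473 ± 1014 to 5157 ± 1704 CPM (log2 1.06 ± 0.31, adjusted p = 0.0122), with overlapping libraries. Of 24 genes that turn tryptophan or vitamin B3 into NAD or use NAD, 12 fell and 2 rose (median -0.49). Kynu, of the kynurenine route, was at 217, 218, 224 and 218 CPM in PF and 102, 116, 124 and 112 CPM in EtOH. The PF libraries were nearly equal and the EtOH libraries between 102 and 124 CPM (log2 -0.95 ± 0.12, adjusted p = 1.65e-05). Haao and Qprt, the next steps towards NAD, fell (log2 -0.98 and -0.87), while Tdo2, the entry step, was at 2198 ± 424 CPM in PF against 2116 ± 923 CPM in EtOH and was not called. The 2 that rose became 1 without PF 4, EtOH 2 or EtOH 3.

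In nitrogen disposal most genes were not called. Of 17 urea cycle and ammonia genes 4 fell, 1 rose and 12 were not called. The shares of 23.5% lower and 5.88% higher compare with 19.5% and 20.4% of all tested genes. Cps1, which starts the urea cycle, was at 7747 ± 1539 CPM in PF against 7763 ± 1981 CPM in EtOH and was not called (log2 0.00). Otc, the next enzyme, fell from 461 ± 18.8 to 293 ± 54.3 CPM (log2 -0.66), and Slc25a13, the carrier that brings aspartate out of mitochondria, from 375 ± 28.2 to 175 ± 19.7 CPM (log2 -1.10). Glul, the glutamine synthetase of pericentral hepatocytes, fell (log2 -1.03), a call that ended in a fit of the 8 libraries alone. Asns, asparagine synthetase, rose from 4.53 ± 3.4 to 22.2 ± 8.11 CPM. In polyamine metabolism Odc1, the rate-limiting enzyme, rose from 88 ± 13 to 175 ± 18.7 CPM, and Smox, which oxidises spermine, from 3.09 ± 0.195 to 19.6 ± 16 CPM (log2 2.67, or 1.93 without EtOH 1). Paox, of polyamine breakdown, and Azin1, an activator of Odc1's product, fell (log2 -1.09 and -0.76).

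**Figure D3:**
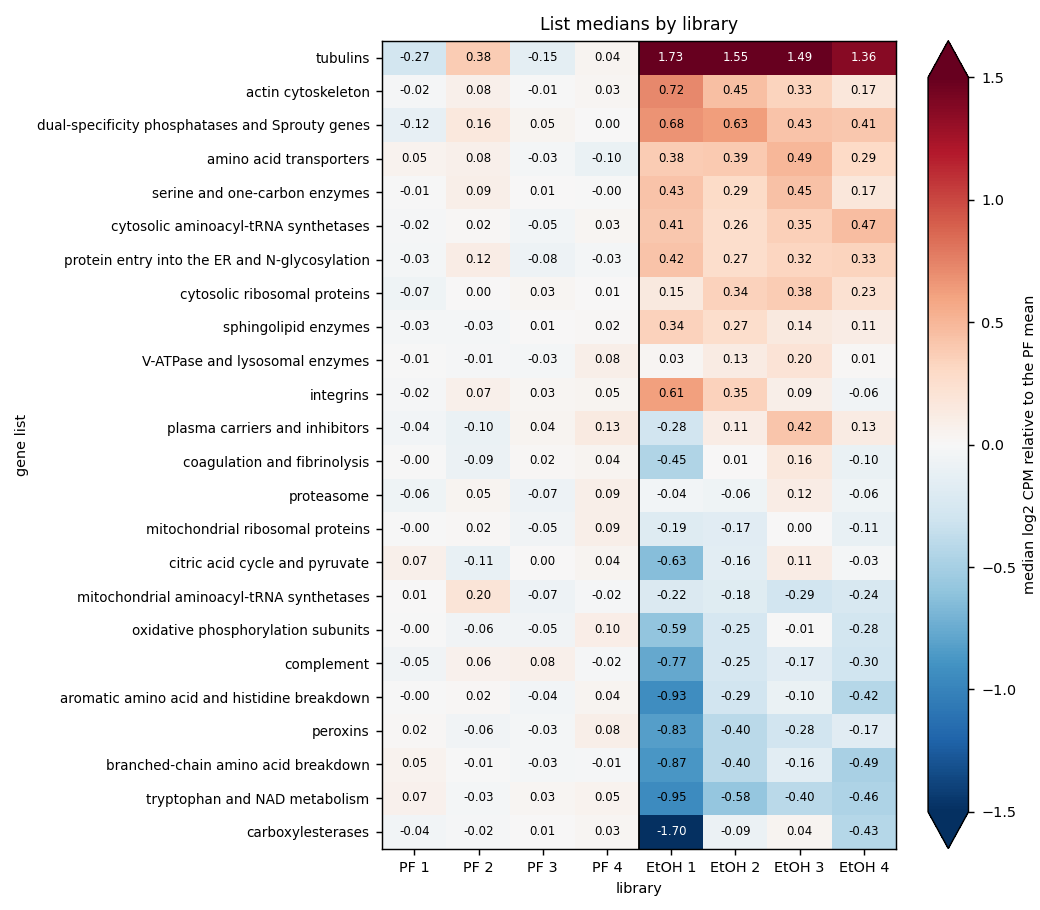
Median over the tested members of 24 gene lists of log2 CPM (prior count 2) minus the PF mean, 1 column per library, with blue below and red above 0. EtOH 1 has the lowest values of the EtOH libraries in most breakdown and mitochondrial lists, and EtOH 3 lies nearest to PF in oxidative phosphorylation (-0.01).

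Of nuclear genes for mitochondrial respiration and peroxisome assembly, those that passed the test were all lower. Of 75 subunits of the respiratory chain and ATP synthase 32 fell and none rose (42.7% lower against 19.5% of all tested genes, median log2 -0.28). Sdha, the flavoprotein of complex II, was at 689, 635, 622 and 683 CPM in PF and 306, 436, 540.2 and 446 CPM in EtOH. No EtOH library reached the lowest PF library (log2 -0.60 ± 0.14, adjusted p = 0.00237). Atp5sl, an assembly factor of complex I, fell from 45.2 ± 3.7 to 19.9 ± 2.38 CPM (log2 -1.18), and Uqcrfs1 and Ndufb3, of complexes III and I, fell (log2 -0.48 and -0.55). The list's median in EtOH 1 to 4 was -0.59, -0.25, -0.01 and -0.28 relative to the PF mean. The count of falls depended on single libraries: it was 12 without EtOH 1, 14 without PF 4, 18 without PF 1, 20 without EtOH 4, 54 without EtOH 3 and 8 in a fit of the 8 libraries alone, with none higher in any of them. The share that fell was then 16% against 18.5% of all tested genes without EtOH 1, 18.7% against 17.4% without PF 4 and 10.8% against 14.7% with the 8 libraries alone, so in these fits it was near or below that of all tested genes.

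Of 28 citric acid cycle and pyruvate genes 7 fell and 3 rose (11 fell without EtOH 3, and 1 rose without PF 1, PF 2 or PF 3). The shares of 25% lower and 10.7% higher compare with 19.5% and 20.4% of all tested genes, and 18 of the 28 were not called. Of the 3 that rose, 1 had a PF mean below 1 CPM. Sucla2 and Suclg1, of succinyl-CoA synthetase, fell (log2 -0.68 and -0.54), but Idh2, which makes NADPH in mitochondria, rose from 75.5 ± 6.72 to 139.8 ± 8.86 CPM (log2 0.89). Of 42 Slc25 carriers of the inner membrane 6 rose and 11 fell, or 14.3% and 26.2%, and 25 were not called. Slc25a42, for coenzyme A, was lower (log2 -1.34) and Slc25a12, for aspartate and glutamate, higher by 0.67. Of 32 mitochondrial import and chaperone genes 1 rose and 6 fell, and 25 were not called. The share of 18.8% lower is near the 19.5% of all tested genes. In that list Timm9, a small chaperone between the membranes, fell from 28.2 ± 3.81 to 12.3 ± 3.5 CPM (log2 -1.20). Sirt3, the main deacetylase of mitochondria, was at 75.7, 79.1, 80.2 and 74.2 CPM in PF and 24.3, 41.4, 52.1 and 44.9 CPM in EtOH. The 4 EtOH libraries were all lower (log2 -0.93 ± 0.17, adjusted p = 0.000655), as they were for Sirt4 and Sirt5, the other mitochondrial sirtuins, at log2 -0.84 and -0.61.

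Of 16 peroxins, which build peroxisomes and import their enzymes, 9 fell and none rose (median log2 -0.43), and 1 rose without EtOH 1. Pex6, an ATPase that recycles the import receptor, was at 105, 116, 110.5 and 121 CPM in PF and 34.1, 60.7, 65.2 and 59.5 CPM in EtOH, with no overlap (log2 -1.04 ± 0.16, adjusted p = 0.000118). Its anchor Pex26 and the receptor Pex5 fell (log2 -0.89 and -0.56). Pex11a, which drives peroxisome division and is a target of PPARA, fell (log2 -1.02) with overlapping libraries. Uox, the urate oxidase of the peroxisome, fell from 2161 ± 265 to 1166 ± 221 CPM (log2 -0.89).

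The cytoskeleton held some of the largest and steadiest rises. Of 11 tubulins tested 9 rose and none fell (median log2 1.47), a count of 9 or 10 in every alternative setting. Tubb2a, a beta tubulin, was at 16.9, 35.9, 22.7 and 28.9 CPM in PF and 222, 149, 200.0 and 150.3 CPM in EtOH. The lowest EtOH library was 4.16-fold above the highest PF library (log2 2.79 ± 0.25, adjusted p = 1.46e-06). Tubb6 rose from 7.87 ± 0.524 to 51 ± 22.4 CPM, Tuba1c from 30.3 ± 3.45 to 118 ± 18.2 CPM and Tubb4b from 52 ± 10.5 to 158 ± 12.6 CPM. Tubb5, Tuba4a, Tuba1b and Tuba1a rose by log2 1.47, 1.28, 1.29 and 1.23, and Tuba8 by 2.96 from 1.87 CPM. The gamma tubulin Tubg1, which seeds microtubules, was not called (log2 0.24). The alpha and beta genes are near-identical over much of their coding part and share reads, so the split between them is uncertain.

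Of 38 actin cytoskeleton genes 20 rose and 1 fell (median log2 0.45), with 2 lower without EtOH 1. Actg1, cytoplasmic gamma actin, was at 99.7, 79, 104 and 116 CPM in PF and 807, 875, 1168 and 703 CPM in EtOH. That was the largest change in the list, with the groups far apart (log2 3.16 ± 0.27, adjusted p = 1.04e-06). Actb, cytoplasmic beta actin and a common reference gene, rose from 296 ± 28.8 to 758 ± 117 CPM (log2 1.36). Myh9, the heavy chain of nonmuscle myosin, rose from 199 ± 8.71 to 535 ± 138 CPM, and the tropomyosin Tpm4 and the coronin Coro1c by log2 1.75 and 1.40. On the mm10 build Actg1 lies on chromosome 11 from 120345687 to 120348495 and Tubb2a on chromosome 13 from 34074278 to 34078008.

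Actin genes are known targets of SRF, which binds the CArG box. The CArG box was found in 5 of the 35 actin cytoskeleton genes in the promoter table (14.3%), in 153 of the 9861 tested genes there (1.55%), in 2.35% of genes that rose and in 1.46% of those that fell. The 5 were Actg1 and Vcl, which rose, and Cnn2, Myl6 and Myl9, which were not called. Of the actin cytoskeleton genes in the promoter table, the box therefore stood in 2 of the 19 that rose (10.5%) and in 3 of the 15 that were not called (20%). None of the 9 tubulin genes in the table held it. The 2 that rose are shown over 120 bases, with the box in capitals, at chr11:120348496-120348615 (minus strand, box 90 bases before the start) and chr14:20929166-20929285 (plus strand, 227 bases before it).
Actg1: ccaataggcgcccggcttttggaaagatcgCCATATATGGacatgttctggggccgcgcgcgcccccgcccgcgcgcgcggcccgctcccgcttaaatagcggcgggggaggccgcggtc
Vcl: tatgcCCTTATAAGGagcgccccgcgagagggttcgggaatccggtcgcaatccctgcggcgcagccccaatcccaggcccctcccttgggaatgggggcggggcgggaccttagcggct

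Some adhesion genes rose. Of 21 integrins 8 rose and 2 fell, 38.1% higher against 20.4% of all tested genes. Without EtOH 1, 5 of the 21 rose, against 19.5% of all tested genes in that fit, so the count depended on EtOH 1. The list's median in EtOH 1 to 4 was 0.61, 0.35, 0.09 and -0.06 relative to the PF mean. Of the 21, 2 had a PF mean below 1 CPM, and 1 of these 2 is among the 8 that rose. Itgb3 rose from 8.17 ± 0.909 to 30.4 ± 5.24 CPM and its partner Itgav from 27.5 ± 1.77 to 44.1 ± 7.64 CPM, and Itga5, of the fibronectin receptor, by log2 0.88. Cldn14, a tight junction claudin, rose from 6.33 ± 1.23 to 55.5 ± 23.2 CPM (log2 3.13), and Gjb2, the connexin 26 of hepatocyte gap junctions, by log2 1.01.

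**Figure D4:**
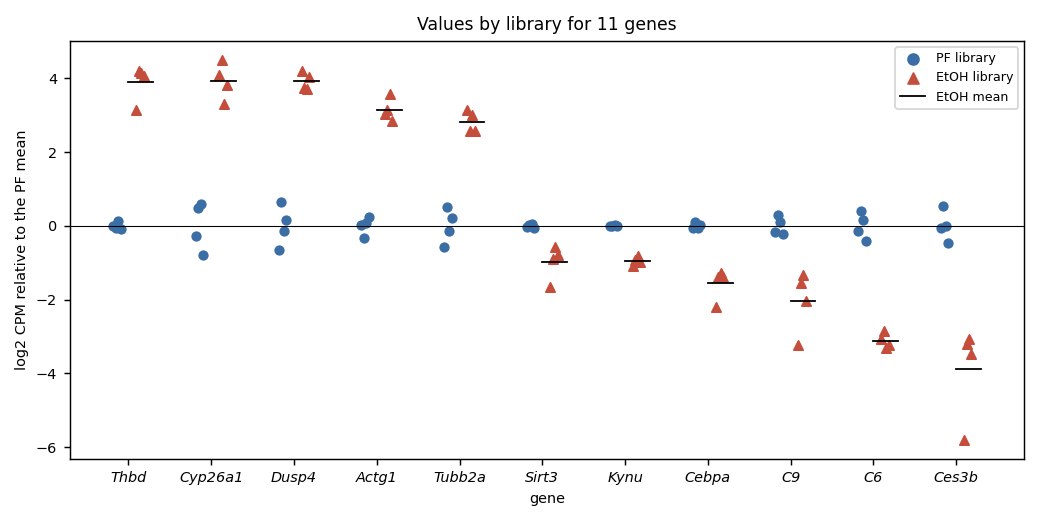
Log2 CPM in each of the 8 libraries relative to the PF mean, for 11 genes. Circles are PF and triangles EtOH libraries, and the bar is the EtOH mean: Tubb2a, Actg1, Thbd, Cyp26a1 and Dusp4 lie above the PF libraries and C6, C9, Cebpa, Ces3b, Kynu and Sirt3 below them.

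Genes that carry new proteins into the endoplasmic reticulum (ER) and attach sugars to them often rose. Of 33 such genes 18 rose and 1 fell (median log2 0.33). Sec61a1, the pore of the translocon, was at 142, 179, 127 and 126 CPM in PF and 312, 241, 251 and 278 CPM in EtOH, with no overlap (log2 0.91 ± 0.16, adjusted p = 0.000465). Stt3b, a catalytic subunit of the oligosaccharyltransferase, rose from 101 ± 4.27 to 190.1 ± 22.9 CPM and Ssr2, of the translocon-associated complex, by log2 0.60. The 1 that fell lost its call without PF 1, PF 4 or EtOH 1. Of the coats of transport vesicles, Sec23a, which bends the COPII coat, fell (log2 -0.62), and Preb, which starts that coat, rose by log2 0.54. In the lysosome 14 of 44 proton pump and enzyme genes rose and 6 fell. Ctsl, a cathepsin, rose from 557 ± 63.8 to 1452 ± 273 CPM (log2 1.38), and Atp6v0d2 and Atp6v0e, of the proton pump, by log2 1.90 and 1.00.

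Most plasma carrier and inhibitor genes were not called. Ahsg, fetuin-A, which keeps calcium phosphate soluble, rose from 4829, 4540.0, 5544 and 4964 CPM in PF to 10949, 9482, 11311 and 10382 CPM in EtOH, with no overlap (log2 1.08 ± 0.14, adjusted p = 3.71e-05). Agt, angiotensinogen, and Itih2, which links hyaluronan, rose by log2 1.52 and 1.09. Of 29 plasma carriers and inhibitors 6 rose (20.7%, near that of all tested genes) and 1 fell, with 11 higher without EtOH 1, 3 without PF 1, PF 2 or EtOH 3 and 2 lower without EtOH 2.

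Complement genes fell more often than they rose. Complement's liver-made parts start with lectins and proteases, meet at C3, and end in the membrane attack complex built of C5 to C9. Of 31 complement genes 12 fell and 2 rose (median log2 -0.30). C6 was at 309, 453, 378 and 253 CPM in PF and 40.4, 47.1, 34.2 and 36.5 CPM in EtOH. Every EtOH library was at least 5.38-fold below every PF library (log2 -3.14 ± 0.26, adjusted p = 8.56e-07). C9, the pore-forming part, was at 397, 551, 482 and 380.1 CPM against 47.3, 152, 177 and 109 CPM (log2 -1.90 ± 0.29). Other terminal parts were lower as well: Hc, which encodes C5, fell from 1071 to 629 CPM, C8a from 654 ± 144 to 247 ± 92.2 CPM, C8g from 333 ± 29.5 to 158 ± 51.2 CPM and C8b from 309.8 ± 56.2 to 183 ± 49.5 CPM. These 6 changes ranged from log2 -0.76 to -3.14. C7, the remaining terminal part, was low at 1.18 ± 0.463 CPM in PF against 0.665 ± 0.634 CPM in EtOH and was not called. C4a, which shares most of its sequence with C4b, fell (log2 -2.32), and Mbl2, a lectin that starts the cascade, fell (log2 -0.82). The central C3 rose instead, from 6697 ± 732 to 11281 ± 1912 CPM (log2 0.75 ± 0.18, adjusted p = 0.00329), as did the protease gene Masp1 (log2 0.63). C6 lies on chromosome 15 from 4727067 to 4804045, C9 on chromosome 15 from 6445346 to 6498825 and Hc on chromosome 2 from 34983329 to 35068506 of mm10.

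Coagulation and fibrinolysis genes went both ways. Of 31 genes 9 rose and 11 fell, or 5 and 7 without PF 1 or PF 3, and 5 rose without EtOH 3. The shares of 29% higher and 35.5% lower compare with 20.4% and 19.5% of all tested genes. Of the 31, 2 had a PF mean below 1 CPM, and these 2 are among the 9 that rose. The filter on low counts may have passed them only through the groups in which they are higher. Thbd, thrombomodulin, which turns thrombin from clotting to anticoagulation, was at 5.01, 4.89, 5.53 and 4.78 CPM in PF and 44.6, 92.6, 89.3 and 84.8 CPM in EtOH. The PF libraries were close together, and the lowest EtOH library was 8.06-fold above the highest of them (log2 3.94 ± 0.25, adjusted p = 1.3e-07). Plaur, the urokinase receptor, rose from 0.718 to 6.92 CPM. F11 and F8, of the intrinsic pathway, fell (log2 -1.07 and -0.88), and F13b, of the clot cross-linker, fell (log2 -0.62). The 3 fibrinogen genes Fga, Fgb and Fgg were called higher (log2 1.02, 0.96 and 0.99) with overlapping libraries, and each lost its call in a fit of the 8 libraries alone and without PF 1, PF 2, PF 3, EtOH 3 or EtOH 4 (for Fgb log2 0.94, 0.90, 0.95, 0.65 and 0.85). Fga and Fgg also lost it without PF 4.

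HNF1 proteins are known activators of liver plasma protein genes. The HNF1 motif, searched on both strands, was found in 41 of the 9861 tested genes in the promoter table (0.416%), in 16 of the 1923 that fell (0.832%) and in 5 of the 2003 that rose (0.25%). Among the plasma protein lists it stood in 2 of 21 complement, 1 of 24 coagulation and 2 of 23 carrier genes. Of these genes with the motif, 1 complement and 2 carrier genes were not called. The 2 of these genes that fell, Hc and F13b, are shown over 120 bases with the motif in capitals, at chr2:35061413-35061532 (minus strand, motif 78 bases before the start in the promoter table) and chr1:139501587-139501706 (plus strand, 55 bases before it). The table's start of Hc lies 7094 bases, and that of F13b 160 bases, inside the full span of the gene in RefSeq's annotation, so these stretches lie within those spans.
Hc: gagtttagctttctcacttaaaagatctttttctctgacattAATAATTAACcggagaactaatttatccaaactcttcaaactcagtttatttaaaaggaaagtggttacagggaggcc
F13b: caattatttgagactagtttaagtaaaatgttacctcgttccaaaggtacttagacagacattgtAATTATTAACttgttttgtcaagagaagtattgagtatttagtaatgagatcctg

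Sphingolipid genes mostly rose where they changed, and retinoid genes went both ways. Of 27 sphingolipid enzymes 12 rose and 1 fell (7 rose in a fit of the 8 libraries alone, and 2 fell without PF 4 or EtOH 3). Sptlc2, of the first and rate-limiting step, was at 14.9, 17.1, 16.5 and 17.2 CPM in PF and 41.6, 49.2, 37.9 and 38.6 CPM in EtOH, and all EtOH libraries were at least 2.2-fold above all PF libraries (log2 1.35 ± 0.13, adjusted p = 2.81e-06). Cers6, the ceramide synthase that uses palmitoyl-CoA, rose from 12.2 ± 4.12 to 49.9 ± 11.7 CPM (log2 2.03), and Sgms1 and Cerk, which turn ceramide into sphingomyelin and ceramide phosphate, by log2 1.25 and 1.59. Sphk1, which makes sphingosine phosphate, rose from 0.465 to 3.28 CPM. In phospholipid synthesis Chka, the choline kinase, rose from 22.8 ± 4.48 to 161 ± 46.5 CPM (log2 2.82), whereas Pcyt2, of the ethanolamine branch, fell (log2 -0.85).

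The liver stores retinoids and breaks down retinoic acid with Cyp26 enzymes, whose genes retinoic acid induces. Cyp26a1 was at 6.66, 11.2, 12.2 and 4.6 CPM in PF and 137, 182, 78.9 and 114 CPM in EtOH. The lowest EtOH library was 6.48-fold above the highest PF library (log2 3.88 ± 0.30, adjusted p = 4.82e-07). Bco1, which splits beta-carotene into retinal, rose from 6.92 ± 1.08 to 46.8 ± 30.8 CPM (log2 2.76), and Bco2, which splits it off centre, fell (log2 -1.11). Lrat, which esterifies retinol for storage, and Stra6l, a receptor for its carrier, rose by log2 0.97 and 1.27. Dhrs3, which turns retinal back to retinol, fell from 86.3 ± 12 to 46.3 ± 5.44 CPM. Dhrs9, a retinol dehydrogenase, rose from 0.685 to 7.15 CPM (log2 3.39, or 4.30 without PF 2). In the whole list 7 of 25 rose and 6 fell, or 3 in a fit of the 8 libraries alone. The shares of 28% higher and 24% lower compare with 20.4% and 19.5% of all tested genes. Ephx1, the microsomal epoxide hydrolase, rose from 235 ± 39.1 to 1021 ± 292 CPM (log2 2.12), and Pla2g12a, a secreted phospholipase, by 2.40.

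Drug-metabolising families outside the cytochromes P450 went both ways within each family. Ces3b, a carboxylesterase of hepatic triglyceride and drug hydrolysis, was at 602, 914, 619 and 451 CPM in PF and 11.3, 67.9, 74.2 and 56.7 CPM in EtOH. EtOH 1 was the lowest, and every EtOH library was at least 6.07-fold below every PF library (log2 -3.62 ± 0.46, adjusted p = 2.52e-05). Of 15 carboxylesterases 6 fell and 2 rose (4 rose without EtOH 1 and 1 without any other single library except PF 2). Of 16 UDP-glucuronosyltransferases 4 rose and 5 fell. Ugt1a9 rose from 19.6 ± 6.42 to 121 ± 15 CPM (log2 2.62), and Ugt2b38 fell from 9.76 ± 9.81 to 0.114 ± 0.197 CPM (log2 -6.29, or -5.30 without PF 2 and -8.51 without EtOH 2). Of the sulfotransferases, Sult1e1, which inactivates oestrogens, rose from 1.37 ± 0.234 to 18 ± 12.5 CPM, and Sult1b1 fell from 35.5 ± 2.19 to 12.8 ± 4.48 CPM. Of the aldehyde oxidases Aox3 fell and Aox1 rose (log2 -1.96 and 1.05). Of 36 ABC transporters 9 rose and 9 fell, 25% each way and near the 20.4% and 19.5% of all tested genes. Abcc3, an export pump of the basolateral membrane, was at 279 ± 22 CPM in PF against 714 ± 149.5 CPM in EtOH (log2 1.36). Ugt, Ces and Sult genes lie in clusters of near-identical copies, and the Ugt1a genes share exons, so values of single members are uncertain.

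Several genes of iron uptake and storage rose, and selenium genes were mixed. Of 21 iron genes 7 rose and 2 fell, and the falls numbered 0 without PF 1, PF 2 or EtOH 1 and 1 without any other library. Tfrc, the transferrin receptor, was at 22.3, 15, 21.8 and 21.8 CPM in PF and 84.3, 50.5, 81.2 and 72 CPM in EtOH, all higher (log2 1.83 ± 0.24, adjusted p = 2.88e-05). Slc39a14, which takes up iron not bound to transferrin, rose from 478 ± 122 to 1278 ± 364 CPM, and the ferritin heavy chain Fth1, which has many processed copies, from 1121 ± 163 to 2098 ± 260.4 CPM. In haem metabolism Slc48a1, which brings haem out of lysosomes, and Blvrb, of haem breakdown, rose by log2 1.33 and 1.29, and Uros and Alad, of haem synthesis, fell (log2 -1.30 and -0.82). Sephs2, which makes the selenium donor of selenoproteins, fell from 1122 ± 106 to 433 ± 141 CPM (log2 -1.37), and Msrb1, a selenoprotein that repairs methionine, fell (log2 -0.93).

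Many feedback genes of kinase pathways and several stress-linked receptors rose. Of 23 phosphatases of MAP kinases and Sprouty genes 11 rose and 2 fell (median log2 0.48). Of the 23, 5 had a PF mean below 1 CPM, and 2 of these 5 are among the 11 that rose. Dusp4 was at 1.22, 3.01, 1.74 and 2.17 CPM in PF and 35.4, 25.6, 25.4 and 31.7 CPM in EtOH. All EtOH libraries were at least 8.46-fold above all PF libraries (log2 3.86 ± 0.40, adjusted p = 4.29e-06). Dusp6, which acts on ERK, rose from 34.7 ± 8.99 to 142 ± 37.9 CPM, Dusp8, which acts on JNK and p38, from 1.35 ± 0.781 to 27.8 ± 7.08 CPM, and Spry4 by log2 1.80. Tnfrsf12a, the TWEAK receptor of injured and regenerating liver, rose from 5.2 ± 1.56 to 82.7 ± 20.7 CPM (log2 3.99), and the tumour necrosis factor receptors Tnfrsf1a and Tnfrsf1b by log2 0.75 and 0.98. Hgf, the growth factor for hepatocytes made by nonparenchymal cells, rose from 7.68 ± 0.912 to 22.5 ± 2.68 CPM. Btc, a ligand of the EGF receptor, rose from 1.7 to 11 CPM (log2 2.71, or 1.73 without EtOH 1). Bcl2l11, the death-promoting BIM, and Bcl2l1, which protects, rose by log2 2.45 and 1.17, and Casp8, an initiator caspase, fell (log2 -0.65).

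Most receptors that set the hepatocyte's response to hormones were not called. Adora1, an adenosine receptor, was at 14.9, 25.7, 21.2 and 18 CPM in PF and 53.9, 48.5, 84.7 and 64 CPM in EtOH, with no overlap (log2 1.65 ± 0.22, adjusted p = 3.2e-05). The vasopressin receptor Avpr1a rose by log2 1.59, and Lifr, the receptor of leukaemia inhibitory factor, fell from 321 ± 114 to 130.3 ± 36 CPM. Of 27 such receptors 5 rose and 4 fell, at 18.5% and 14.8% not above the shares of all tested genes (9 rose without EtOH 1). Igfals, which holds IGF1 in the blood, fell (log2 -1.28).

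Among regulators of hepatocyte genes, Cebpa, a factor of the mature hepatocyte, was at 416, 461, 413 and 437 CPM in PF and 93.9, 165, 177 and 166 CPM in EtOH. The EtOH libraries lay far below (log2 -1.52 ± 0.18, adjusted p = 1.16e-05). Onecut1 (HNF6) and Onecut2 fell (log2 -1.91 and -0.96), while Zbtb20 rose by 1.49. Of 26 nuclear receptors 7 rose and 9 fell, with Nr1h3, the sterol sensor LXR alpha, lower in every EtOH library, at 90.4 ± 3.03 CPM in PF against 48.4 ± 2.97 CPM in EtOH (log2 -0.90). Of 13 Kruppel-like factors 6 rose and 2 fell. Klf6, an injury-induced member, rose from 9.38 ± 1.9 to 91.5 ± 15.7 CPM (log2 3.29), Klf3 by log2 1.54, and Klf4 by 2.47, or 1.87 without EtOH 1. Wwtr1, the Hippo effector TAZ, rose by log2 0.77, whereas Amotl2, a target and inhibitor of that pathway, fell (log2 -1.31). Of 25 Wnt pathway genes 6 rose and 9 fell, with the R-spondin receptor Lgr4 and the Wnt-induced factor Tbx3 lower (log2 -0.82 and -1.82). Of 19 Notch pathway genes 7 rose and 4 fell (4 rose without PF 1), the ligand Dll1 higher and the ligand Dll4 lower (log2 1.27 and -0.97).

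Most proteasome genes and cytosolic heat shock chaperones were not called. Of 48 proteasome genes 4 rose and 4 fell, 8.33% each way against 20.4% and 19.5% of all tested genes (2 to 7 rose with any single library left out, 7 without EtOH 1 and 2 without PF 1, PF 2, PF 3 or EtOH 3). Of 25 heat shock chaperones 4 rose and 5 fell. Hspa8, the constitutive HSC70 chaperone, fell from 1265, 1029.5, 1621 and 1523 CPM in PF to 408, 573, 438 and 636 CPM in EtOH, with no overlap (log2 -1.40 ± 0.17, adjusted p = 1.93e-05). Hspa4l and Hspb1, also of the heat shock family, rose by log2 1.53 and 1.20. Of the autophagy genes, Ulk2, a starting kinase, and Nbr1, a cargo receptor, fell (log2 -0.77 and -0.61), and Vmp1, of membrane supply, rose by 0.97.

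Carbohydrate and nucleotide genes were divided within each list. Of 23 genes of fructose, galactose and glucuronate use 8 rose and 7 fell. Pgm1, by its symbol a phosphoglucomutase gene, rose from 4.55 ± 0.301 to 13.3 ± 4.65 CPM. Glyctk, of late fructose breakdown, fell from 337 ± 15.3 to 126 ± 40.8 CPM. Gulo, the last step of vitamin C synthesis in mice, fell from 578 ± 80.9 to 287 ± 67.9 CPM. In glycolysis and hypoxia genes 7 of 26 rose and 4 fell, 26.9% and 15.4% against 20.4% and 19.5% of all tested genes. Pfkfb1, the liver switch between glycolysis and gluconeogenesis, was at 86.2, 63.6, 84.3 and 70.5 CPM in PF and 22.8, 23.4, 34.2 and 32.8 CPM in EtOH. The diets did not overlap (log2 -1.43 ± 0.19, adjusted p = 4.2e-05). The hypoxia-linked genes went both ways, with Ndrg1 higher (log2 1.27) and Vegfa and Ldha lower (log2 -0.56 and -0.71). Of 38 purine and pyrimidine genes 9 rose and 9 fell, 23.7% each way and near the 20.4% and 19.5% of all tested genes. Cda, of pyrimidine salvage, was at 8.16 ± 2 CPM in PF against 25.5 ± 2.04 CPM in EtOH. Tkt, of the pentose phosphate pathway, rose by log2 0.52, and Idh1, a cytosolic source of NADPH, fell (log2 -0.65).

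In methyl metabolism most genes were not called. Of 20 methionine cycle and choline oxidation genes 4 fell, 2 rose and 14 were not called. The shares of 20% lower and 10% higher compare with 19.5% and 20.4% of all tested genes. Chdh, which starts the oxidation of choline to betaine, fell from 238 ± 31.9 to 131 ± 21.9 CPM. Gatm, which makes the creatine precursor, fell from 8.47 ± 1.17 to 4.29 ± 1.92 CPM. Mat2a, the methionine adenosyltransferase of dividing and non-liver cells, rose from 107 ± 22.1 to 179 ± 45.3 CPM (log2 0.74).

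Several genes for the transport of water and glycerol fell, and the shares called among organic ion transporters were near those of all tested genes. Aqp4, a water channel of the basolateral membrane, fell from 10.4 ± 1.3 to 3.29 ± 0.388 CPM (log2 -1.66), and Gyk, the glycerol kinase, from 195 ± 25.1 to 113 ± 22.3 CPM. Slco1a1, a male-biased uptake carrier of steroid conjugates, was at 619, 639, 647 and 527 CPM in PF and 7.7, 94.9, 82.2 and 31 CPM in EtOH. All EtOH libraries were below all PF libraries (log2 -3.50 ± 0.58, adjusted p = 0.000241). Of 27 organic ion transporters 7 rose and 5 fell (8 fell without EtOH 2), or 25.9% and 18.5%. These shares are near the 20.4% and 19.5% of all tested genes. Of the 27, 3 had a PF mean below 1 CPM, and these 3 are among the 7 that rose.

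Genes seen in fetal liver and in calcium-binding families rose in part. Of 16 fetal liver and progenitor genes 6 rose and 2 fell. Igf2bp2, an RNA-binding protein of growing tissues, rose from 1.13 ± 0.487 to 3.39 ± 0.269 CPM, and Fgfr2, a growth factor receptor, fell (log2 -1.36). Cd63, a tetraspanin of late endosomes, rose from 3.46 ± 0.981 to 18.9 ± 16 CPM (log2 2.46, or 1.68 without EtOH 1). S100a10, the partner of annexin A2, rose by log2 1.16 and S100a13 fell (log2 -0.95). S100a11 rose by log2 1.81, or 0.86 without EtOH 1.

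In the machinery of RNA, Polr3b and Gtf3c1, of RNA polymerase III and its initiation factor, fell (log2 -0.74 and -0.55). The splicing factor Srsf3 and the RNA-binding Hnrnpd rose by log2 0.68 and 0.54, and Hnrnpc fell (log2 -0.50). Of 30 SR and hnRNP splicing genes 6 rose and 5 fell, 20% and 16.7%, near the 20.4% and 19.5% of all tested genes. Xpo4, a nuclear export receptor, rose from 4.05 ± 1.59 to 9.64 ± 2.37 CPM, and Ipo8, an import receptor, fell from 70.7 ± 9.67 to 44.6 ± 6.79 CPM. Of 43 nuclear pore and transport genes 10 rose and 5 fell, 23.3% and 11.6%, and 28 were not called. Of the chromatin deacetylases, Hdac11 was at 42.3, 58.8, 39.7 and 33.2 CPM in PF and 18.3, 28.7, 17.2 and 17.8 CPM in EtOH, with no overlap (log2 -1.09 ± 0.25, adjusted p = 0.00255), and Sirt7, of the nucleolus, fell (log2 -0.75). Pias3, an inhibitor of STAT3, fell from 10 ± 3.18 to 3.21 ± 0.684 CPM (log2 -1.63).

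Several reactions can be run by a liver isozyme or by a form that other tissues prefer. For 16 such pairs the log2 ratio of the liver form to the other form was compared between diets, each with a 2-sided exact permutation test over 4 against 4 libraries and adjustment over the 16, of which 13 are reported here. In 8 of these 13 the ratio was lower in all EtOH libraries than in all PF libraries. Each of the 8 had an exact permutation p = 0.0286, the smallest possible, and adjusted p = 0.0508. Thus 0 of the 13 passed 0.05 and 8 had an unadjusted p under 0.05. Among single tested genes 32.3% did not overlap between diets, and the share for ratios of other gene pairs was not computed. The pairs were chosen with earlier results of these data known, so the 8 of 13 is no result about liver isozymes as a class. For glucose transport the log2 ratio of Slc2a2 to Slc2a1 was 4.60, 4.59, 4.62 and 4.67 in PF and 0.90, 3.32, 2.27 and 3.01 in EtOH. The PF libraries were nearly equal and EtOH 1 was lowest (shift -2.25). The ratio of Pklr to Pkm, the pyruvate kinases, shifted by -1.95 and that of the phosphofructokinases Pfkl to Pfkp by -1.81. Glycogen synthase shifted through its liver form, with Gys2 lower (log2 -1.51) and Gys1 not called (log2 0.00). The desaturase pair Scd1 and Scd2 shifted by -4.35, the acyl-CoA synthetases Acsl1 and Acsl4 by -2.30, the carnitine transferases Cpt1a and Cpt1b by -1.68, and the arginine carriers Slc7a2 and Slc7a1 by -3.44. Cpt1b was not called (log2 1.02) and was at most 0.967 CPM in any EtOH library. Slc7a2 was not called (log2 0.12), so that shift came through Slc7a1, which was low in PF (mean 0.967 CPM) and highest in EtOH 1. The ratios for methionine adenosyltransferase (Mat1a and Mat2a) and alanine aminotransferase (Gpt and Gpt2) overlapped between diets, with shifts of -0.20 and -0.10. So did those of Pygl to Pygb, of glycogen breakdown, of Slc38a3 to Slc38a1, for glutamine, and of the monooxygenases Fmo5 to Fmo1, with shifts of -1.09, -0.94 and 0.50. Pkm and the other non-liver forms are also made by cells other than hepatocytes, and the part of such cells in the ratios was not tested.

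**Figure D5:**
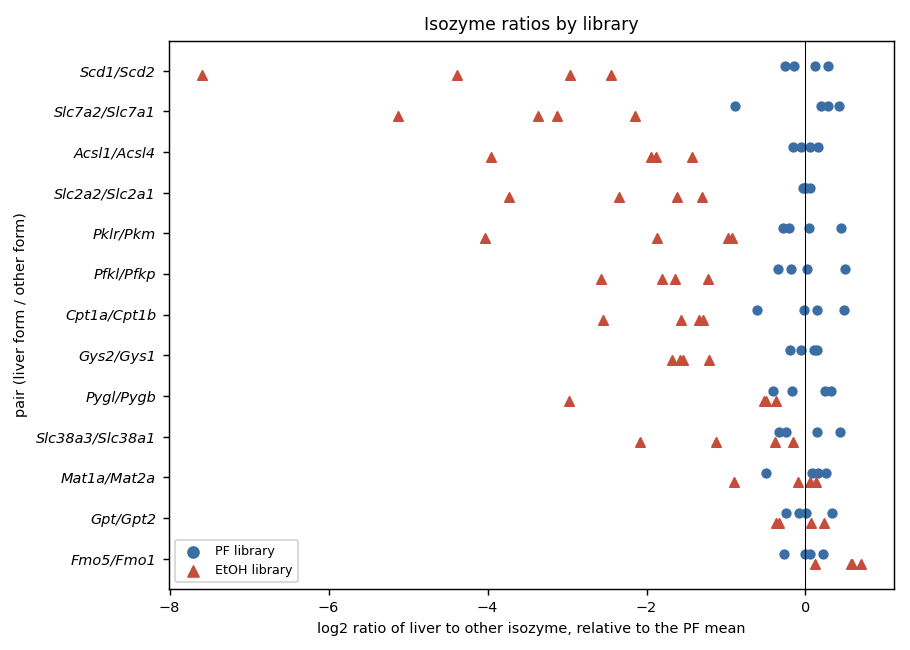
Log2 ratio of the liver isozyme to the other isozyme in each library, relative to the PF mean, for 13 pairs ordered by the shift between diets. Circles are PF and triangles EtOH libraries. In 8 pairs all EtOH triangles lie below all PF circles.

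Of the cell types other than hepatocytes whose markers are given here, most had low sums in these libraries. Markers of macrophages, neutrophils, sinusoidal endothelial cells and stellate cells are not among them. Biliary markers summed to 48.77 to 79.19 CPM in PF and 54.49 to 75.55 CPM in EtOH, and 1 of the 8 tested was higher and none lower. The T cell, NK cell, B cell, platelet and mesothelial lists each summed to at most 14.48 CPM in any library, and of their 19 tested genes 2 were higher and 1 lower. The erythroid list summed to 97.11 to 172.2 CPM in PF and 17.47 to 42.89 CPM in EtOH. In PF most of that was Alas2, the erythroid form of the first enzyme of haem synthesis, which fell from 117 ± 29.9 to 20.3 ± 12.9 CPM, while the globins Hba-a1, Hba-a2, Hbb-bs and Hbb-bt were at 0 in all 8 libraries. The globins form near-identical pairs, and reads that map to several places or to overlapping genes are not counted, so their 0 does not show a low level. The mast cell list summed to 25.06 to 41.93 CPM in PF and 17.42 to 37.59 CPM in EtOH, mostly histidine decarboxylase Hdc (24.1 ± 7.95 and 24.7 ± 7.82 CPM), with Mcpt4, Cpa3, Cma1, Fcer1a and Ms4a2 at 0. Of its 3 tested genes Kit, a receptor of stem cell factor, fell from 10.6 ± 0.816 to 2.18 ± 0.591 CPM (log2 -2.30), and Gata2, a transcription factor, rose from 0.958 ± 0.364 to 1.95 ± 0.176 CPM (log2 1.03), a call that ended without PF 3. The adipocyte list summed to 1667 to 2766 CPM in PF and 185.5 to 1524 CPM in EtOH, most of it Car3, a carbonic anhydrase that mouse hepatocytes also make (1986 ± 506 and 913 ± 565 CPM, not called), with Adipoq, Plin1 and Lep at 0 in all 8 libraries. Of its 4 tested genes Cfd, adipsin, fell from 11.8 ± 5.89 to 0.0549 ± 0.0403 CPM, and Fabp4, a fatty acid binding protein, rose from 9.38 ± 1.99 to 25.1 ± 5.02 CPM (log2 1.42). The pancreatic acinar list summed to 10.52 to 18.73 CPM in PF and 6.244 to 8.668 CPM in EtOH, with 5 of its 13 genes at 0. Most of that sum was the 1 gene tested, which fell from 13.2 ± 3.72 to 7.22 ± 1.41 CPM (log2 -0.86), so it does not show acinar tissue. The part that these cells have in the gene lists above was not tested.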

How the data were processed

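Poly-A RNA of whole mouse liver was sequenced, 4 libraries per group in 4 groups. The submitters' processing notes name Trimmomatic, STAR and the build mm10, with versions not given in the sources used here. Per library, the authors deposited 1 file of whole-number read counts per gene, with columns for unstranded and stranded counting. The unstranded counts were used, so overlapping genes are not told apart and reads that map to several places are left out. The 4 rows that name no gene (unmapped, multimapping, no feature, ambiguous) were kept out of library sizes and tests and held 30.6% to 37.0% of reads per library.

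Genes were filtered with edgeR 4.0.16 (R 4.3.3; filterByExpr, minimum count 10), scaled by TMM and tested with the quasi-likelihood test of EtOH minus PF in a fit of all 16 libraries, with Benjamini-Hochberg adjustment over the 12901 tested genes and a limit of 0.05. CPM are counts scaled to the TMM-adjusted library size. Ratios of isozymes use log2 CPM with a prior count of 2 and exact permutation tests. With 15.3 to 20.5 M counts per library, 1 CPM is 15.3 to 20.5 counts before the TMM adjustment, and this number scales with the TMM factor. The factor was 1.269 in EtOH 1 and ranged from 0.8634 (EtOH 3) to 1.046 (PF 2) in the other EtOH and PF libraries. Alternatives were the 8 libraries alone, DESeq2 1.42.0, limma voom 3.58.1 with and without group weights, other scalings, other filters, the replicate number as a block and each library left out. The scripts were tested on simulated data.

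The members, lists and pairs were chosen with earlier results of these data known. Genes named are, for each list, up to 4 members with the smallest p among those called with at least 1 CPM in the higher group, both genes of each pair, and the 20 largest rises and 20 largest falls without overlap and with at least 1 CPM in the higher group, leaving out predicted gene models and 36 listed genes such as Cyp2b10 and Gstm3. The following were named after their values were seen: Aars, Alas2, Bckdha, Bco2, C3, C4a, C4b, C7, C8a, C8b, C8g, Car3, Cfd, Cnn2, Cps1, Dhrs9, F11, F13b, Fabp4, Fga, Fgb, Fgg, Gata2, Glul, Haao, Hdc, Iars, Kit, Lrat, Masp1, Myh9, Myl6, Myl9, Pex11a, Phgdh, Sgms1, Shmt1, Shmt2, Sirt5, Slc38a2, Slc7a5, Tars, Tat, Tdo2, Tuba1a, Tuba1b, Tuba4a, Tuba8, Tubb5, Tubg1, Vcl and Yars. Some genes that the rule names, and 3 of the 16 pairs, are not reported here. Promoter sequences and motif shares come from RefSeq's GRCm38.p6 table, with 9861 of 12901 tested genes matched by symbol. Also searched were a heat shock element, the CLEAR core, an NRF1 element, a TEAD site and the E-box CACGTG. In that order they stood in 0.449%, 2.0%, 1.75%, 14.9% and 11.2% of genes that rose. Among genes that fell the shares were 0.624%, 1.98%, 2.65%, 15.5% and 10.6%.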

Additional observations from a re-analysis of the deposited data

Results flagged for a closer look

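In the groups of 4 libraries of the 270 named genes, 36 of 540 groups held a library far from the other 3 by Dixon's criterion at the 95% level. Chance gives about 1 in 20 groups, and 13 of these groups had EtOH 1 apart, 11 PF 2 and 12 another library. Values are in CPM.

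EtOH 1 lay above the other EtOH libraries in Eif6 at 141 against 107 to 111, Slc7a1 at 34.5 against 5.97 to 10.2, Bco1 at 92.8 against 26.9 to 34, Plaur at 12.4 against 4.83 to 5.22, Cd63 at 42.8 against 9.74 to 12.9, S100a11 at 27.4 against 4.45 to 7.74, Btc at 27.1 against 5.22 to 5.99, Nrg1 at 9.54 against 1.03 to 1.34 and Pygb at 14.5 against 4.03 to 5.76. EtOH 1 lay below the other EtOH libraries in Idh2 at 127 against 143 to 145, Thbd at 44.6 against 84.8 to 92.6, Cebpa at 93.9 against 165 to 177 and Sirt5 at 5.9 against 8.46 to 8.96.

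PF 2 lay above the other PF libraries in Slc7a1 at 1.57 against 0.698 to 0.808, Avpr1a at 20.4 against 12.2 to 13.1, Ugt2b38 at 24.4 against 4.34 to 5.87, Gadd45a at 2.13 against 1.2 to 1.28, Aars at 251 against 209.5 to 216 and Bco2 at 24.5 against 14.3 to 15.8. PF 2 lay below the other PF libraries in Gtf3c1 at 68.3 against 90.3 to 92.7, Slc25a13 at 333 against 386 to 395, Tfrc at 15 against 21.8 to 22.3, Sec23a at 134 against 185 to 192 and Acsl1 at 1445 against 1973 to 2042.

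EtOH 2 lay above the other EtOH libraries in Ugt2b38 at 0.407 against 0 to 0.0484 and Hdac11 at 28.7 against 17.2 to 18.3. EtOH 3 lay above the other EtOH libraries in Sephs2 at 645 against 348 to 376 and C7 at 1.61 against 0.291 to 0.436. EtOH 4 lay above the other EtOH libraries in Cars at 48.9 against 38.2 to 39.1 and Cpt1b at 0.967 against 0.29 to 0.403. EtOH 4 lay below the other EtOH libraries in Hars2 at 18.4 against 19.9 to 20 and Pfkl at 23.9 against 29.9 to 30.4. PF 3 lay above the other PF libraries in C4b at 2466 against 1974 to 2033. PF 3 lay below the other PF libraries in Hnrnpd at 36.3 against 41.1 to 41.9 and Nrg1 at 0 against 0.122 to 0.125. PF 4 lay below the other PF libraries in Masp1 at 51.2 against 88.9 to 92.5.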

How the results depend on the processing

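The comparison called 5137 genes (2627 higher, 2510 lower) in the fit of 16 libraries, and between 3757 (the 8 libraries alone) and 5403 (DESeq2) under the alternatives, with 4255 to 5040 when 1 library was left out. Of the 5137, 3022 were called under every alternative that was run and 3568 with each library left out in turn, and calls shared with an alternative had the same direction. The replicate number as a block gave 4883 calls, 4760 of them shared, and the deviations of same-numbered libraries correlated at -0.0879, 0.155, 0.0416 and 0.0316, so the numbers did not pair the libraries. Upper quartile scaling shifted the median of all genes by -0.0506 on the log2 scale and put 44.4% of calls in the higher group, against 51.1%. Limma voom gave 5095 calls and 4074 with group weights. No filter gave 4819 calls and a minimum count of 50 gave 4597.

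Of the 270 named genes, 247 were called, and the call ended for 9 without a single library and for 7 with the 8 libraries alone. Of all 16 isozyme pairs, 0 passed 0.05 with all libraries, 10 without EtOH 1, 10 without EtOH 2 and 11 without EtOH 3, with a range of 0 to 11 when 1 library was left out. Pairs at the smallest possible exact p share 1 adjusted p, which depends on how many pairs reach it. They therefore pass or miss 0.05 together, and these counts do not measure how far any 1 pair depends on a library. With the 8 libraries alone 3 UDP-glucuronosyltransferases fell against 5, and 3 lysosomal genes fell against 6. At a minimum count of 50, 4 organic ion transporters rose against 7 and 1 Kruppel-like factor fell against 2.

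Signs turned only for genes and pairs that were not called and for library measures, and the cause was not tested. With 1 library left out, log2 values ranged from -0.086 to 0.39 for Fmo5, -0.11 to 0.15 for Gys1, -0.14 to 0.15 for Cps1, -0.097 to 0.17 for Tars, -0.19 to 0.23 for Hdc, -0.34 to 0.15 for Myl9 and -0.29 to 0.21 for Tdo2. Gys1 was at log2 -0.0047 with the 8 libraries alone, -0.0547 with voom, -0.0563 with weights, -0.055 with upper quartile scaling, -0.0016 at a minimum count of 50 and -0.0024 with the block. Cps1 was at log2 -0.0041 with the 8 libraries alone, -0.00065 with weights, -0.053 with upper quartile scaling and -0.021 with the block. With upper quartile scaling Tars was at -0.029 and Hdc at -0.028, and Myl9 was at 0.0595 with voom and 0.0603 with weights. With 1 library left out, shifts of pairs ranged from -0.21 to 0.0075 for Gpt to Gpt2 and -0.37 to 0.029 for Mat1a to Mat2a. The differences between diets ranged from -1.22 to 0.52 M for counts, -235.8 to 15.3 for detected genes and -0.054 to 0.41 percentage points for reads outside genes.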
